A study of Mus musculus with 3 samples.

Results

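The nuclear genes of the respiratory chain and ATP synthase were followed in the chromatin-bound RNA of mouse macrophages. They were chosen by symbol: protein-coding genes named Nduf followed by a subunit letter and number (complex I), Sdha to Sdhd (complex II), Uqcr (complex III), Cox4 to Cox8 (complex IV) or Atp5 (ATP synthase), without pseudogenes and without the Ndufaf assembly factors. The rule used no measured value and found 85 of the 55536 annotated genes, or of 22015 nuclear protein-coding genes. They comprised 37 genes of complex I, 4 of complex II, 8 of complex III, 18 of complex IV, 17 of ATP synthase, and Atp5s, which was once named as a coupling factor of ATP synthase and is kept apart here. The 85 gene identifiers carry 84 symbols, because the annotation holds Atp5o under 2 identifiers.

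Macrophages grown from the bone marrow of C57BL/6J mice were used, and all of them had the same treatment. They received lipid A, the membrane anchor of lipopolysaccharide that activates TLR4, at 100 ng/ml for 12 h, were washed and left for 12 h, and received 100 ng/ml again for 30 min. RNA of the chromatin fraction was depleted of ribosomal RNA and sequenced as total RNA in 3 biological replicates, which share a donor identifier. The single group has no untreated or once-treated counterpart in these data, so the levels describe this treated state alone.

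The respiratory chain sits in the inner mitochondrial membrane. Complexes I and II pass electrons from NADH and succinate to ubiquinone, complex III passes them to cytochrome c, complex IV passes them to oxygen, and ATP synthase uses the resulting proton gradient. Complex II is encoded wholly in the nucleus, and the other complexes also contain subunits encoded in mitochondrial DNA. In macrophages the pathway is known for its link to activation: stimulation through TLR4 is commonly followed by a turn to glycolysis, and succinate oxidation and complex I are known sources of reactive oxygen in activated cells. Chromatin RNA is enriched for transcripts still attached to their template, so the values below do not describe the messenger RNA pool or the protein. The fraction also held RNA of mitochondrial genes, given below. What part of each gene's RNA was attached to its template was not measured.

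Total expected counts were 12532722, 18395358 and 18237730 in replicates 1, 2 and 3. These libraries were made from 1 µg, 250 ng and 500 ng of RNA in the same order, so an effect of input cannot be told apart from one of the replicate. The 85 genes held 6069, 11116 and 8574 counts, or 0.0489%, 0.0607% and 0.0472% of the counts on rows that name a gene (12401783, 18317179 and 18164629). Of the macrophage markers, 8 of 8 were above 1 TPM, and their summed level was 1086 to 1140 TPM per library. Of 5 lymphoid, 5 granulocyte and mast cell, 4 stromal and endothelial, 3 erythroid, 4 muscle and 2 brown fat markers, 0 passed the test for a level above 1 TPM that is used below, and the summed level of each of these lists stayed at or below 3.39 TPM in every library. Adgre1 had 345 ± 27.3 TPM and Lyz2 262 ± 20.1 TPM (SD, n = 3). The lymphoid markers Cd3e and Ncr1, the granulocyte markers S100a8, Ly6g and Mpo, the erythroid gene Hbb-bs, the muscle gene Acta1 and the brown fat gene Cidea had 0 counts.

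Most of the 85 genes had chromatin RNA at a low to moderate level. TPM, the unit used throughout for levels, is corrected for transcript length and adds up to the same total in each library. With a floor of 1 TPM (limma, one-sided, adjusted p under 0.05 over 24180 genes), 67 of the 85 genes were above the floor, which is 83.8% of the 80 that had a nonzero value. The same rule called 51.1% of all genes fitted and 61.7% of nuclear protein-coding genes fitted. Above 5 TPM there were 26 of the 85 genes, all among the 80 fitted, against 29.2% of all genes and 39.0% of nuclear coding genes fitted. The median level of the 85 genes was 4.39, 5.72 and 3.81 TPM in replicates 1, 2 and 3, a mean of 4.64 ± 0.979 TPM (SD, n = 3). The 85 include 5 genes at 0. The median over nuclear coding genes with a nonzero value was 4.07 ± 0.343 TPM, and over all 22015 nuclear coding genes it was 0.540 ± 0.0436 TPM. More of the respiratory chain genes thus passed the low floor than coding genes at large. Above 5 TPM the comparison depended on the genes counted. The share was 30.6% of the 85, against 26.75% of all nuclear coding genes. Among genes with a nonzero value it was 26 of 80, against 39.0% of nuclear coding genes. In bulk libraries, fewer cells holding an RNA and less RNA per cell cannot be told apart.

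**Figure D1:**
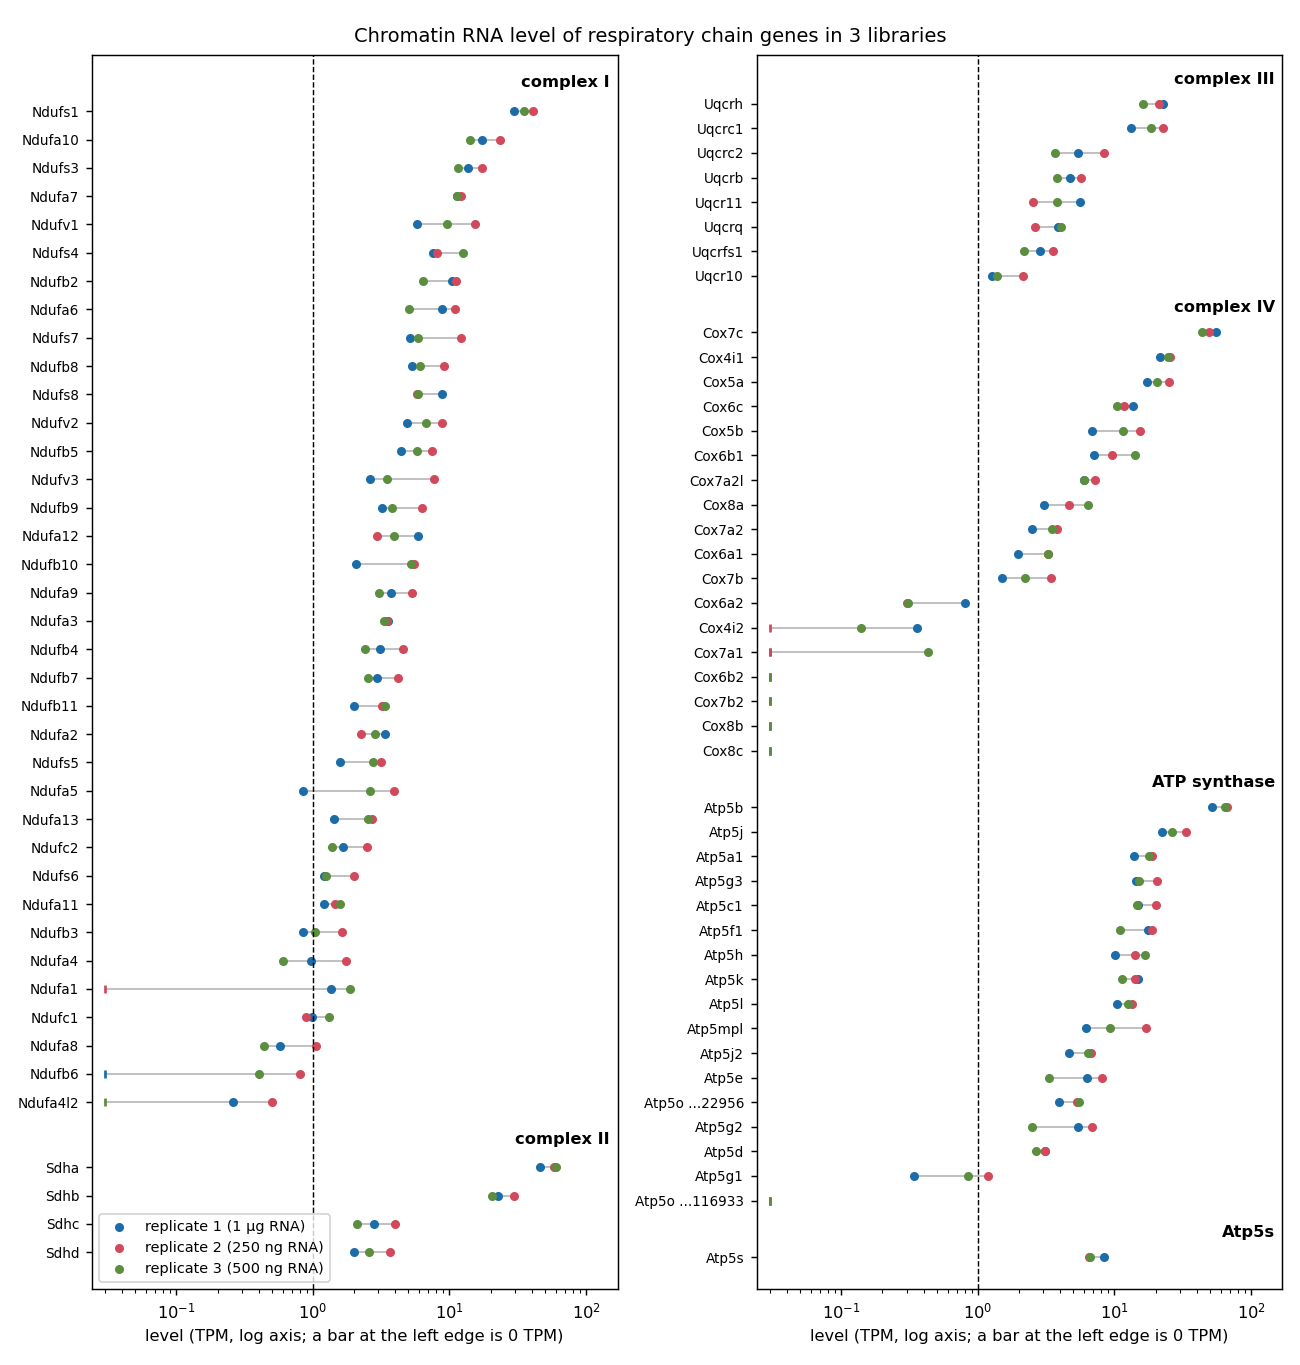
Level of the genes, of which 84 are drawn (horizontal axis, TPM on a log scale) in the 3 libraries, by complex and in order of mean level. Each point is a library, the grey line is the range, the dashed line is 1 TPM and a bar at the left edge is a value of 0. Levels run from 0 in every library (5 genes) to a mean of 61.1 TPM for Atp5b, and the genes of complex IV that lie left of the line are tissue isoforms.

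Other housekeeping complexes stood higher. All 76 cytoplasmic ribosomal protein genes and all 34 constitutive proteasome genes were above 1 TPM, with medians of 16.6 ± 2.34 and 22.1 ± 2.81 TPM (SD, n = 3). The vacuolar proton pump, another rotary machine of many subunits, had 18 of 26 genes above 1 TPM and a median of 16.1 ± 1.56 TPM. The 14 enzymes of the TCA cycle, which feed electrons to the chain, were all above 1 TPM with a median of 17.0 ± 1.70 TPM. In each of the 3 libraries the median of each of these 4 groups exceeded that of the 85 respiratory chain genes. No test was run on these differences between groups of genes.

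**Figure D2:**
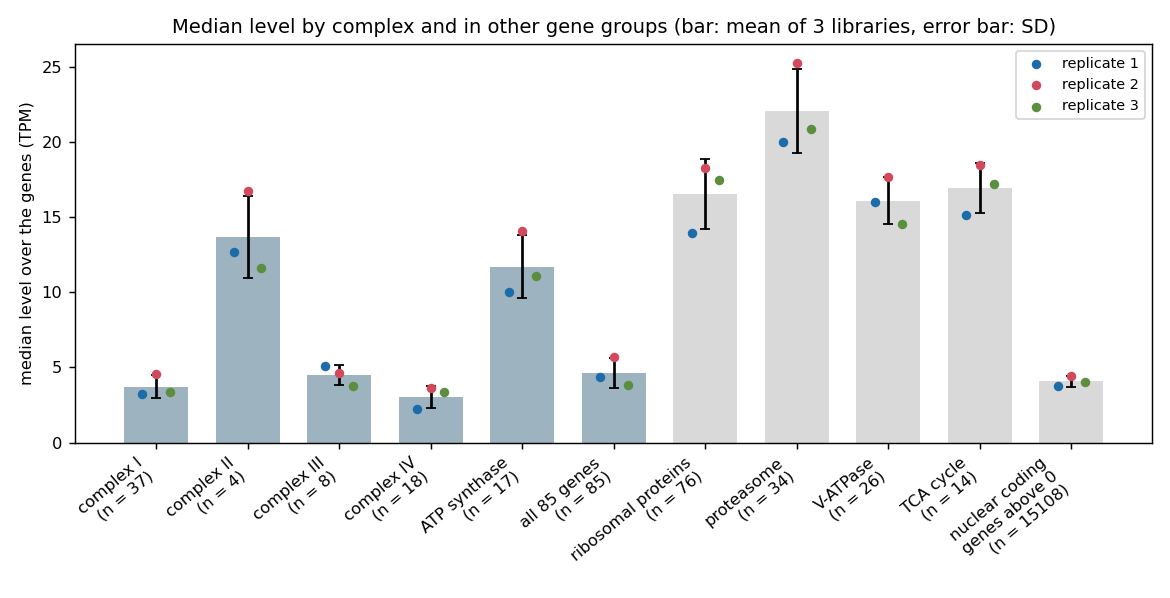
Median level over the genes of each complex (blue-grey bars) and of other groups (grey bars), in TPM. Bars are the mean of the 3 library medians, error bars the SD, and points the libraries. Complex II (13.7 TPM) and ATP synthase (11.7 TPM) stand above complexes I, III and IV (3.72, 4.51 and 3.07 TPM) in every library. The median of complex IV includes 7 tissue isoforms that were not above 1 TPM.

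The complexes differed in level. The median was 13.7 ± 2.72 TPM over the 4 genes of complex II, 11.7 ± 2.09 TPM over ATP synthase, 4.51 ± 0.660 TPM over complex III, 3.72 ± 0.753 TPM over complex I and 3.07 ± 0.730 TPM over complex IV (SD, n = 3). The median of complex III was above those of complexes I and IV in every library, by as little as 4.63 against 4.59 TPM for complex I in replicate 2. The median of complex II was above that of ATP synthase in every library, although both lie within each other's spread. Complex IV counts 7 tissue isoforms, given below, that were not above 1 TPM in the gene table, and they lower its median. In the second transcript table, described below, its median was 9.14 TPM, above 7.41 TPM in complex III and 6.96 TPM in complex I. No test was run on the order of the complexes. Genes above 1 TPM numbered 28 of 37 in complex I, 4 of 4 in complex II, 8 of 8 in complex III, 11 of 18 in complex IV and 15 of 17 in ATP synthase. Within every complex the levels of single subunits were far apart, although the proteins assemble in fixed proportions. Across the 80 genes with a nonzero value, the level and the summed length of annotated exons had a Spearman rho of 0.577. The levels also take in reads on transcripts that are not annotated as protein-coding. What part either has in the differences between subunits was not tested.

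In complex I, which takes electrons from NADH, the median level of the catalytic core genes was above that of the other genes. The products of the 7 nuclear core genes carry the flavin, the iron-sulfur clusters and the quinone site, and 7 of the 7 genes were above 1 TPM, with a median of 11.3 ± 3.57 TPM. Of the 30 other genes, mostly accessory subunits, 21 were above 1 TPM, with a median of 2.84 ± 0.503 TPM. These 30 were assigned by symbol and include Ndufa4, whose protein is now placed in complex IV, and its relative Ndufa4l2. Neither was above 1 TPM. The core median was the higher one in each library, at 8.85 against 2.35, 15.4 against 3.36 and 9.56 against 2.81 TPM. Single genes of both groups overlapped, since the accessory gene Ndufa10 had a mean of 18.3 TPM and the core gene Ndufv2 6.78 TPM, and the difference was not tested.

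Ndufs1, the largest iron-sulfur subunit (mm10 chr1:63143596-63176833, minus strand), had 29.9, 41.0 and 35.3 TPM in replicates 1, 2 and 3. Its log2 level over 1 TPM was 5.0 with an SE of 0.167 (limma, adjusted p = 4.31e-05), and its mean level was higher than 86.7% of nuclear coding genes with a nonzero value. Ndufa10, an accessory subunit, had 17.4, 23.4 and 14.2 TPM, and Ndufs3, a core subunit of the arm that faces the matrix, had 13.7, 17.3 and 11.6 TPM. Both overlap in range, and each was lower than Ndufs1 in every library.

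At the low end of complex I, 9 genes were not above 1 TPM. Ndufa5, an accessory subunit, had 0.840, 3.94 and 2.62 TPM, lowest in replicate 1. The adjusted p was 0.0991 over all replicates (limma) and 0.0167 when replicate 1 was left out, which is under the threshold. Ndufs6, a zinc-binding subunit near the core, had 1.2, 2.01 and 1.25 TPM and missed it more narrowly (adjusted p = 0.0779). Ndufb3 had 0.85, 1.64 and 1.04 TPM, Ndufc1 0.990, 0.890 and 1.31 TPM, and Ndufa8 0.570, 1.05 and 0.440 TPM. Ndufa1, an accessory membrane subunit encoded on the X chromosome, had 3, 0 and 5 counts, or 1.35, 0 and 1.87 TPM, and Ndufb6 had 0, 0.80 and 0.40 TPM. These are required parts of the enzyme, and each was measured here on 30 counts or fewer over the 3 libraries, so their place above or below 1 TPM was not well resolved at this depth. The remaining 2 genes of the 9 are the pair Ndufa4 and Ndufa4l2, given with the isoforms below.

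Complex II split into a high and a low pair. Sdha, the flavoprotein that oxidizes succinate, had 46.4, 58.4 and 60.4 TPM (mean 55.1 ± 7.58 TPM, SD, n = 3), and Sdhb, the iron-sulfur subunit, had 22.6, 29.6 and 20.6 TPM. Sdhc and Sdhd, the membrane anchors that hold the quinone site, had 2.78, 3.98 and 2.11 TPM and 2.01, 3.64 and 2.59 TPM. The catalytic pair and the anchor pair do not overlap: the lowest value of Sdhb was 20.6 TPM and the highest of Sdhc 3.98 TPM. In the second transcript table the gap between the pairs was narrower for Sdhc, which had 10.1 ± 2.17 TPM there, and Sdhd had 2.62 ± 1.02 TPM. Protein-coding transcripts took 79.0% of the counts of Sdha and 31.1% of those of Sdhb, against 100% for Sdhc and Sdhd.

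All 8 genes of complex III were above 1 TPM. Uqcrh, the hinge protein beside cytochrome c1, had 22.8, 21.1 and 16.2 TPM, and Uqcrc1, a core protein, had 13.3, 22.8 and 18.6 TPM. Uqcrc2, the partner core protein of Uqcrc1, was lower, with 5.45, 8.34 and 3.68 TPM, and its range does not meet that of Uqcrc1. In the second transcript table the ranges met, at 8.94 to 23.4 TPM for Uqcrc2 and 17.8 to 30.1 TPM for Uqcrc1. Uqcrb, which helps to bind ubiquinone, had 4.76, 5.72 and 3.80 TPM. Uqcrfs1, the Rieske iron-sulfur protein, had 2.83, 3.54 and 2.16 TPM, and Uqcrq had 3.88, 2.61 and 4.05 TPM. Uqcr10, a small subunit with 13 counts in all, had 1.26, 2.14 and 1.39 TPM and only just passed the floor (limma adjusted p = 0.0479; 0.0753, 0.123 and 0.107 without replicate 1, 2 or 3).

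In complex IV, Cox7c, a small membrane subunit, was the highest gene, with 55.2, 49.1 and 43.6 TPM. Cox4i1, the largest nuclear subunit, had 21.5, 25.3 and 24.5 TPM, and Cox5a, its neighbour on the matrix side, had 17.2, 25.1 and 20.3 TPM. Cox6c had 13.8, 11.7 and 10.4 TPM. Cox7c exceeded each of the other 17 genes of the complex in every library.

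Complex IV is also where most subunits with tissue isoforms are found, and in these macrophages the common isoforms held most of the RNA. The 8 isoforms known from other tissues or from hypoxia (Cox4i2, Cox6a2, Cox6b2, Cox7a1, Cox7b2, Cox8b, Cox8c and Ndufa4l2) gave 0 of 8 above 1 TPM. Of their 8 common counterparts (Cox4i1, Cox6a1, Cox6b1, Cox7a2, Cox7a2l, Cox7b, Cox8a and Ndufa4), 7 were above it. The summed level of the 8 rare isoforms was 1.42, 0.80 and 0.88 TPM in replicates 1, 2 and 3, a mean of 1.03 ± 0.34 TPM (SD, n = 3), against 54.7 ± 8.81 TPM for the counterparts.

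Cox4i2, the isoform of lung and of hypoxia, had 2, 0 and 1 counts. Cox4i1 was 143-fold higher by mean TPM, with a 95% interval of 48.4 to 695 from counting error. Cox6a2, the heart and skeletal muscle isoform, had 0.80, 0.30 and 0.31 TPM, and Cox6a1 was 6.00-fold higher (2.78 to 14.8). Cox7a1, also of heart and muscle, had a single count, in replicate 3. Cox7a2 had 2.51, 3.81 and 3.46 TPM and Cox7a2l had 5.94, 7.18 and 6.02 TPM. The ratio of Cox7a2 to Cox7a1 was 22.7, with a counting interval of 3.86 to 921.

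The testis isoforms Cox6b2, Cox7b2 and Cox8c and the muscle isoform Cox8b had 0 counts in all 3 libraries. Measured against 3 counts over the group, the limit that 0 allows, Cox6b1 was at least 33.1-fold higher than Cox6b2, Cox7b at least 9.81-fold higher than Cox7b2, and Cox8a at least 8.26-fold higher than Cox8b and at least 14.04-fold higher than Cox8c. Cox6b1 had 7.13, 9.55 and 14.2 TPM, Cox7b 1.5, 3.41 and 2.22 TPM, and Cox8a 3.05, 4.61 and 6.38 TPM. These intervals and limits cover counting error only. Muscle markers were near 0 in the gene table, with a summed level of 0.0800 to 0.210 TPM per library.

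Ndufa4 was first counted with complex I, and its protein is now placed in complex IV. It had 0.960, 1.74 and 0.600 TPM, on 28 counts, and was not above 1 TPM (limma adjusted p = 0.845). Ndufa4l2, its hypoxia-induced relative, had 0.26, 0.50 and 0 TPM on 3 counts. The ratio of their means was 4.34, with a counting interval of 1.34 to 22.3. Ndufa4 was the lowest of the common isoforms.

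The split between isoforms depended on the quantification. The second transcript table, which the deposited text describes as made directly from the reads, gave Cox7a1 6.95 ± 2.16 TPM, Cox8b 2.56 ± 1.21 TPM, Cox4i2 1.64 ± 0.735 TPM, Cox7b2 0.685 ± 0.437 TPM and Cox6b2 0.264 ± 0.245 TPM (SD, n = 3). Cox7a1 and Cox8b were above 1 TPM there, and the muscle marker Ckm had a mean of 2.01 TPM in that table against 0.0933 TPM in the gene table. Markers of other lineages were also higher in that table: the T cell gene Cd3d had a mean of 15.4 TPM against 0.0167 TPM in the gene table, Mpo 1.74 against 0 TPM and the endothelial gene Pecam1 9.93 against 1.59 TPM. Their part in the isoform values was not tested. The common isoform stayed the higher one in that table, by 41.6-fold for Cox4i1 over Cox4i2, 3.57-fold for Cox7a2 over Cox7a1 and 10.6-fold for Cox8a over Cox8b, while Cox7a2l and Cox7a1 were nearly level (ratio 1.05).

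ATP synthase had 15 of 17 genes above 1 TPM. Atp5b, the catalytic beta subunit (mm10 chr10:128083273-128090391, plus strand), had the highest mean of all 85 genes in the gene table, with 51.9, 67.2 and 64.0 TPM. Its log2 level over 1 TPM was 5.79 with an SE of 0.160 (limma, adjusted p = 3.94e-05). Sdha, at 55.1 TPM, lies within its spread. In the second transcript table Atp5b had a mean of 55.5 TPM, less than Sdha (86.3), Cox7c (77.9), Cox4i1 (68.0) and Ndufs1 (67.3 TPM). Atp5j, the coupling factor 6 of the stalk, had 22.5, 33.5 and 26.5 TPM. Atp5a1, the alpha subunit that alternates with beta in the catalytic head, had 14.01, 18.8 and 18.04 TPM, less than Atp5b in every library. Atp5d, a subunit of the central stalk, had 3.11, 3.10 and 2.66 TPM. The second Atp5o identifier had no counts, and the first had 3.91, 5.35 and 5.50 TPM. Because both entries overlap on the same strand, how the reads were split between them is uncertain. Atp5s had 8.42, 6.49 and 6.58 TPM.

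The genes Atp5g1, Atp5g2 and Atp5g3 encode subunit c, whose ring turns in the membrane. Their last 225 coding bases, which hold the mature protein, specify the same residue at each of 75 codons, and the genes differ there only at silent positions. Atp5g1 and Atp5g2 differ at 34 of these bases, Atp5g1 and Atp5g3 at 45, and Atp5g2 and Atp5g3 at 48, and the longest run shared by Atp5g3 with either of the others is 11 bases. The first 90 bases of the stretch are printed because the genes make the same mature protein but differed in gene level. These bases show where a read can tell the genes apart. They are read from the reference transcripts, with capitals in Atp5g1 and Atp5g2 where the base is not that of Atp5g3:
Atp5g1: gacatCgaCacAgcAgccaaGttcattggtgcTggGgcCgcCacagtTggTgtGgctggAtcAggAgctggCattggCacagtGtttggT
Atp5g2: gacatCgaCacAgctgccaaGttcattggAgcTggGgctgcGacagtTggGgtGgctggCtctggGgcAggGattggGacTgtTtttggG
Atp5g3: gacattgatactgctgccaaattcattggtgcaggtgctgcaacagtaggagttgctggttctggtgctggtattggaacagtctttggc

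Atp5g3 had 14.4, 20.5 and 15.1 TPM, Atp5g2 5.44, 6.80 and 2.47 TPM, and Atp5g1 0.340, 1.19 and 0.840 TPM. The order Atp5g3, Atp5g2, Atp5g1 held in each library and the ranges do not overlap. By mean TPM, Atp5g3 was 3.40-fold above Atp5g2 and 21.1-fold above Atp5g1. These are levels of whole genes. Of the counts of Atp5g3, 78.7% fell on transcripts annotated as processed transcripts and 21.3% on protein-coding ones. For Atp5g2 and Atp5g1, 100% fell on protein-coding transcripts, so the ratios do not describe coding RNA alone. Atp5g1 was not above 1 TPM in the gene table. In the second transcript table the 3 genes had means of 18, 4.68 and 1.69 TPM in the same order.

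Most of these genes had a higher level in the second transcript table, as did most coding genes. Among the 67 genes above 1 TPM, it gave a higher level for 55 (82.1%) and a level over 2-fold higher for 16 (23.9%), with a median ratio of 1.57. Over 9319 nuclear coding genes above 1 TPM it gave a higher level for 76.6% and one over 2-fold higher for 15.9%, with a median ratio of 1.27, and the difference was not tested. The largest differences were those of Cox7a2 (3.26 against 24.8 TPM), Cox8a (4.68 against 27.1 TPM) and Cox7b (2.38 against 11.3 TPM), all small complex IV subunits. By the same test, 74 of the 85 genes were above 1 TPM in the second table, against 57.5% of all genes and 65.5% of nuclear coding genes fitted there. Across the 80 genes with a nonzero value, the ranks of both tables had a Spearman rho of 0.878, a description across genes that share the same 3 libraries.

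**Figure D3:**
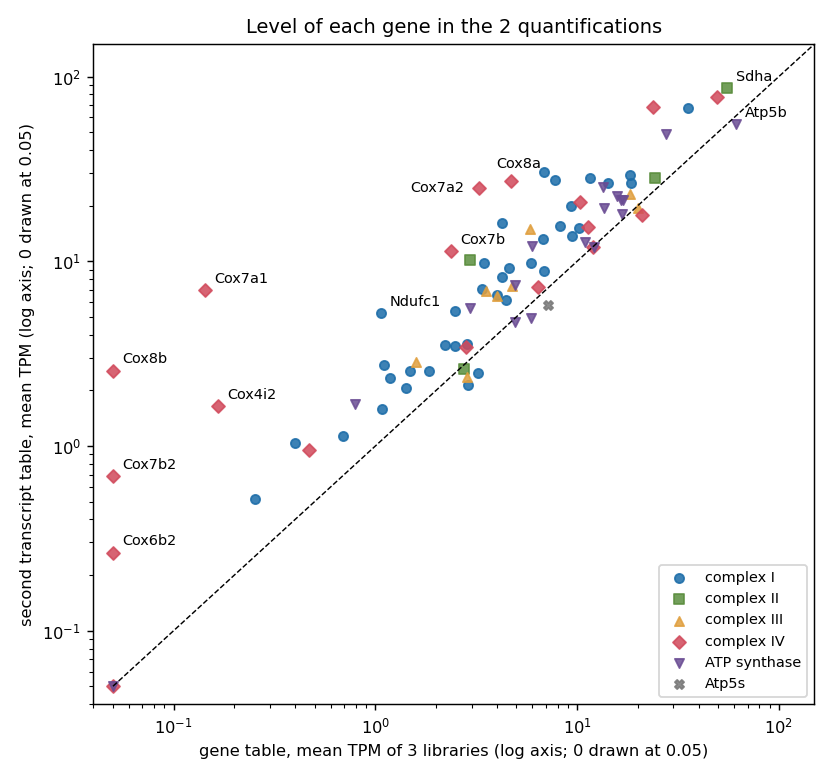
Mean level of each gene over 3 libraries in the gene table (horizontal) and in the second transcript table (vertical), in TPM on log axes, with values of 0 drawn at 0.05. The dashed line is equality. Most symbols lie above it, and the complex IV genes Cox8b, Cox7a1, Cox7b2 and Cox4i2 are among the farthest above it.

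A large part of the counts fell on transcripts annotated as retaining an intron. In the first transcript table these transcripts took a median of 19.5% of the counts of the 67 genes above 1 TPM, against 10.2% for coding genes above 1 TPM. They took more than 50% in 26 of the 67 (38.8%), against 18.2% of coding genes. The annotation holds a retained-intron transcript for 62.7% of the 67 genes and for 65.3% of the coding genes, so such transcripts were annotated about as often. The median share was 59.9% in ATP synthase, where 9 of 15 genes were over 50%, 38.9% in complex IV, 30.3% in complex I, 2.47% in complex III and 0 in complex II. Of the other groups, 48.7% of the ribosomal protein genes, 32.4% of the proteasome genes and 16.7% of the vacuolar proton pump genes were over 50%.

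Single genes ranged over the whole scale. Retained-intron transcripts took 97.4% of the counts of Atp5l, a membrane subunit of ATP synthase, 91.5% of those of Cox5a and 82.0% of those of Atp5j. They took 56.4% for Atp5b, 53.3% for Ndufs1 and 19.5% for Sdha. Atp5c1 and Cox7c, both well expressed, had 0 on such transcripts. How counts are shared among the transcripts of a gene is the authors' estimate, and reads of unspliced RNA can be assigned to a retained-intron transcript only where one is annotated.

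**Figure D4:**
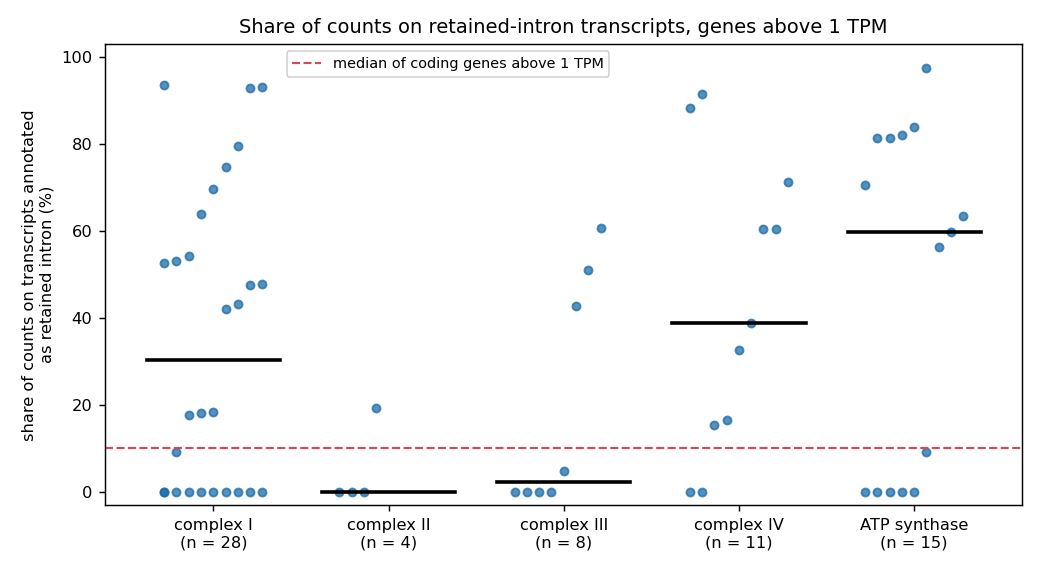
Share of each gene's counts (vertical axis, percent) on transcripts annotated as retained intron, for the genes above 1 TPM of each complex. Each point is a gene, black lines are medians, and the dashed line is the median over coding genes above 1 TPM (10.2%). ATP synthase has the highest median, 59.9%, and complex II the lowest, 0.

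The genes were crowded with neighbours. Of the 85, 31 (36.5%) had a protein-coding gene starting within 1000 bases on the opposite strand, against 2384 of 22015 nuclear coding genes (10.8%). In 13 of the 31 the neighbour's transcribed region overlapped the gene, and in 18 it stood apart. The neighbour was above 1 TPM in 20 of the 31. Among nuclear coding genes at large, 61.7% of those fitted and 42.4% of all were above it, and no difference was tested. The pairs named next were chosen after their values were seen. Ndufa7, an accessory subunit of complex I, starts 10 bases from Rps28, a ribosomal protein gene, and they had means of 11.6 and 13.9 TPM. Sdhd starts 98 bases from Timm8b, of the mitochondrial protein import system, with 2.75 and 2.95 TPM. Levels of neighbours could also lie far apart: Ndufa2 had 2.83 TPM beside Ik, a splicing factor gene, at 117 TPM. Atp5j overlaps Gabpa, whose start lies 700 bases from its own. Gabpa encodes the DNA-binding subunit of GABP, also called nuclear respiratory factor 2, and had 14.1, 10.4 and 11.0 TPM. Whether the counting used strand is not given in the sources used here, and 26 of the 85 genes share exon sequence with a gene on the opposite strand, so part of the reads at such pairs may belong to the partner.

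The promoters are printed because the members of the group are known targets of shared factors, namely nuclear respiratory factor 1, the ETS factor GABP and YY1. RefSeq promoter windows of 250 bases before to 50 after the start (GRCm38.p6) were matched for 68 of the 84 symbols. On either strand and in any window of a gene, GCATGCGC (an NRF1 core) was present in 10 of the 68 (14.7%) against 3.93% of 17491 coding genes, CCGGAAG (an ETS core) in 16 (23.5%) against 12.9%, and AAGATGGC (a YY1 core) in 10 (14.7%) against 3.57%. At least 1 of these 3 was found in 30 genes, a count for which no share over coding genes was computed. The YY1 core started after the transcription start in 8 of its 10 genes. The GC box GGGCGG was present in 41.2% against 49.2%, and TATAAA in 10.3% against 14.8%. The NRF1 core reads nearly the same on both strands, so matches on the opposite strands can overlap. These are matches of letters and show no binding.

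Below are the windows of Sdhb, with an NRF1 core that begins 54 bases before the start and an ETS core 6 bases after it, of Cox6a1, with overlapping NRF1 cores from 162 bases and an ETS core 16 bases before the start, and of Atp5j, with a YY1 core 88 and an ETS core 61 bases before the start. RefSeq has 2 windows for Atp5j. The one printed belongs to a start inside the gene, and the one at the annotated gene start (chr16:84835576-84835875) holds none of the 3 cores. Capitals mark the matches, and each window is given on the strand of its gene.
Sdhb (GRCm38.p6, chr4:140961021-140961320, plus strand): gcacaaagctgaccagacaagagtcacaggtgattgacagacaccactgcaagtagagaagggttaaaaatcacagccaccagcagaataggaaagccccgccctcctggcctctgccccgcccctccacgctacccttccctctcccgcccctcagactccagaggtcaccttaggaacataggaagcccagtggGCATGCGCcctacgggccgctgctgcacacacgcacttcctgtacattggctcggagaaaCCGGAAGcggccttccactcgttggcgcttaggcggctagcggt
Cox6a1 (GRCm38.p6, chr5:115348909-115349208, minus strand): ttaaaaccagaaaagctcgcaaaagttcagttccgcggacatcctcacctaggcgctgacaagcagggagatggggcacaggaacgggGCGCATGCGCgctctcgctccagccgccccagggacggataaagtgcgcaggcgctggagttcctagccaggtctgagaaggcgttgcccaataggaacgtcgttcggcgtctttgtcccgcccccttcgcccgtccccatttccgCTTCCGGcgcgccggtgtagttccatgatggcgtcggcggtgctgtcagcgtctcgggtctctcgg
Atp5j (GRCm38.p6, chr16:84834927-84835226, minus strand): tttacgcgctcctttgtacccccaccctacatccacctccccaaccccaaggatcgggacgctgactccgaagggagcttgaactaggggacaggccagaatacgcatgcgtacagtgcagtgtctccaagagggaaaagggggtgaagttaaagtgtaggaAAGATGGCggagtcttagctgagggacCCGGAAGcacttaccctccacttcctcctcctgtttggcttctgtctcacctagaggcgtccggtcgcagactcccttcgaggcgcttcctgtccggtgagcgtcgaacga
The median of the mean levels was 8.55 TPM for genes with the ETS core and 4.25 TPM without, and 6.58 TPM with the NRF1 core and 4.64 TPM without. Sdhb and Cox6a1, which hold both cores, had means of 24.2 and 2.82 TPM.

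Of 16 genes for regulators of mitochondrial biogenesis, 14 were above 1 TPM. Esrra, the estrogen-related receptor alpha, had 44.0 ± 7.17 TPM and Gabpb2, a partner of Gabpa, had 38.2 ± 2.15 TPM (SD, n = 3). The coactivator Ppargc1a, best known from muscle and brown fat, was the lowest, with a single count and 0, 0 and 0.0200 TPM, although the second transcript table gave it a mean of 1.74 TPM.

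The other parts of the pathway were read from lists of genes. All 6 listed nuclear genes of the pathway whose symbols fall outside the patterns were above 1 TPM, though not all of them encode subunits. Ndufab1, the acyl carrier protein that is also a complex I subunit, was highest with 22.7, 30.3 and 20.6 TPM. Atpif1, the inhibitor of ATP synthase, had 12.2, 16.1 and 16.7 TPM. The lowest was Ndufb1-ps, with 6.52 ± 0.702 TPM, which the annotation types as a noncoding RNA. Of 46 assembly factors, 33 were above 1 TPM and the median was 3.14 ± 0.409 TPM, close to that of complex I. Foxred1, which assembles complex I, had 26.4 ± 2.64 TPM and Cox16, which assembles complex IV, had 22.4 ± 1.21 TPM, and Pet117 had 0 counts. The 19 genes of ubiquinone synthesis and quinone-linked enzymes were all above 1 TPM with a median of 7.39 ± 0.941 TPM. The highest were Coq10b, a ubiquinone-binding protein, with 20.2 ± 6.15 TPM and Coq2, a prenyltransferase, with 19.6 ± 0.864 TPM, and the lowest was Coq4 with 1.65 ± 0.436 TPM. Among the TCA cycle genes, Dlst, a subunit of the oxoglutarate dehydrogenase complex, had 86.6 ± 10.3 TPM, Idh3b, of isocitrate dehydrogenase, 54.8 ± 8.79 TPM, and Suclg1, of succinyl-CoA ligase, 3.30 ± 1.18 TPM.

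Of the 13 subunits encoded in mitochondrial DNA, 12 had a nonzero value in the chromatin fraction and 8 were above 1 TPM. The highest was mt-Co1, the catalytic subunit of complex IV, with 303, 146 and 223 TPM, followed by mt-Atp8 with 198, 93.3 and 180 TPM. The gene tables list mt-Co2 at 0 in every library, whereas the second transcript table gave it a mean of 21.8 TPM. The summed level of the 13 was 688, 389 and 802 TPM in replicates 1, 2 and 3, lowest in replicate 2. Part of the sum in replicate 3 came from mt-Atp6 and mt-Nd3, with 61.7 and 26.5 TPM there and 0 in replicates 1 and 2. In replicate 1 mt-Nd4l was also at 0, against 31.8 and 28.3 TPM in replicates 2 and 3. The level of mt-Co3 was 1.95, 0.03 and 13.6 TPM. The summed level of the 85 nuclear genes was 675, 870 and 720 TPM, highest in replicate 2.

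The nuclear genes moved together to a limited extent between libraries. Scaled by TMM, 63 of the 85 passed the filter on low counts, and their median log2 CPM relative to the mean of the other libraries, less the same median over coding genes, was -0.07 in replicate 1, 0.28 in replicate 2 and -0.25 in replicate 3. Computed from TPM the same shifts were -0.23, 0.33 and -0.08, so replicate 2 was highest on both scales and the lowest library changed. In replicate 2, made from the least RNA, 48 of the 63 genes lay above the coding-gene reference, and 41 of the 63 (65.1%) had their highest library there, against 40.1% of coding genes kept. By complex the shift in replicate 2 was 0.40 for complex I, 0.38 for ATP synthase, 0.33 for complex II, 0.30 for complex III and 0.14 for complex IV. Complex III in replicate 1 was on the positive side, at 0.20, unlike the other complexes. Each input amount has 1 library, so no test of this difference was possible.

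**Figure D5:**
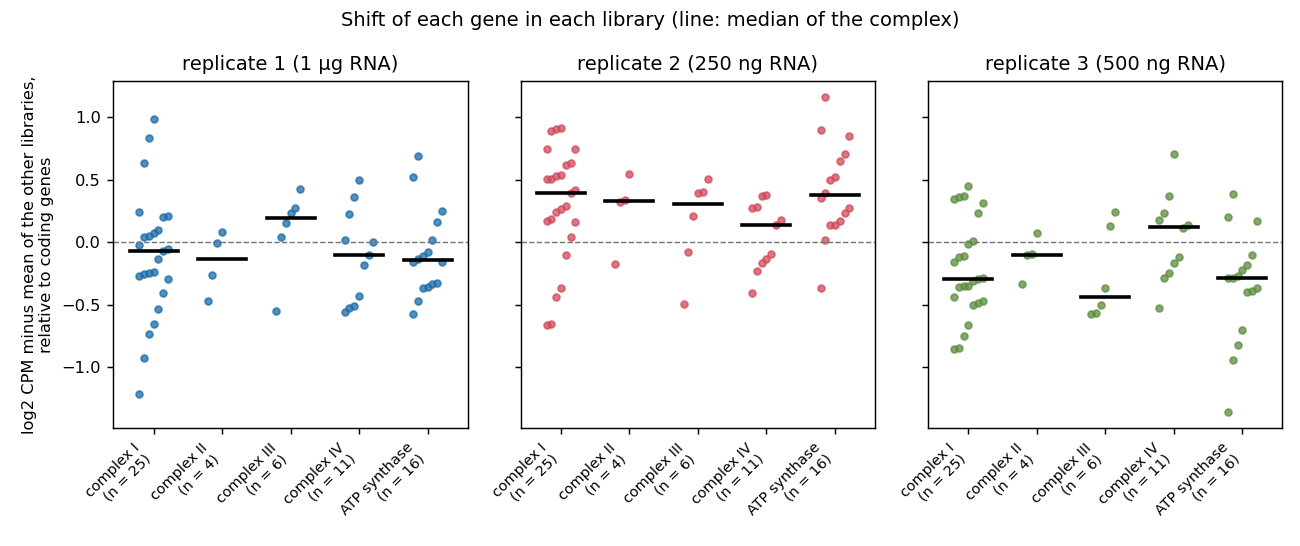
Shift of each of the 62 subunit genes that passed the filter (points) in each library: log2 CPM less the average of the other libraries, set against the same value over coding genes. Black lines are medians of the complex and the dashed line is 0. In replicate 2 the medians of all 5 complexes lie above 0, from 0.14 to 0.40, and in replicate 3 the medians of all but complex IV lie below it.

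The spread between libraries was somewhat wider than in coding genes at large. The median SD of log2 CPM was 0.288 over the 63 genes and 0.225 over the coding genes kept. The largest spread was that of Atp5g2 (SD 0.766), with 28.8, 45.2 and 16.3 expected counts, followed by Ndufb10 (SD 0.740), with 10, 40 and 32 counts, and Atp5g1 (SD 0.705), with 12, 39 and 14 counts. All 3 rest on few counts. Over the whole group, 18 of the 85 genes had fewer than 30 counts in the 3 libraries together and 45 had at least 100.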

How the data were processed

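Chromatin RNA of 1 group of 3 replicates was analysed. The replicates share a donor identifier, so p-values measure the spread between these samples. Per the file headers, the authors deposited expected counts and TPM per gene and per transcript, and a second transcript table of estimated counts and TPM. The deposited text beside each sample gives mm10 and release M21. The sources used here do not name the aligner, the tool versions or the strand setting. Rows that name no gene held 0.401% to 1.05% of the counts and were left out.

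Levels were tested against 1 TPM with limma 3.58.1 (intercept only, log2(TPM + 0.1), one-sided, Benjamini-Hochberg over 24180 genes, threshold 0.05); this log2 scale understates differences of low genes. In simulated data of 23068 genes, 4%, 60% and 98% of 50 genes at 1, 2 and 4 TPM were called. Expected counts, rounded, were scaled with edgeR 4.0.16 (TMM, filterByExpr, 14140 genes kept). Chi-square per degree of freedom between libraries was 44.6 to 84.6, so none was a copy. A gene with 0 counts may have had up to 3.

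The members, lists and tests were chosen with earlier results of these data known. Genes were named by rule: the 4 highest and 3 lowest of complexes I, III and IV and ATP synthase, all of complex II, all isoform groups, all genes not above 1 TPM, the 3 with the largest spread and the 3 with the largest ratio between quantifications, and the 2 highest and the lowest of each other list. Chosen outside it, after values were seen, were the genes beside neighbours, those given for a share of transcripts or a promoter, and the markers at 0 or high in the second table. R 4.3.3, DESeq2 1.42.0, pandas 2.3.3 and scipy 1.17.1 were used. A complex I gene and a marker that the rules cover are not reported here by name. Alternatives are given at the end.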

Additional observations from a re-analysis of the deposited data

How the results depend on the processing

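The number of genes above 1 TPM was 67 and stayed between 51 and 74 under the alternatives that kept that floor. Fitting all annotated genes gave 51, all of them among the 67. That fit called 10445 of 55536 genes and 8205 of 22015 nuclear coding genes. The floor of 5 TPM gave 26, against 7051 of 24180 genes and 5890 of 15108 nuclear coding genes. Leaving out replicate 1, 2 or 3 gave 65, 63 and 62. Those fits called 11900 of 23304, 11961 of 22992 and 11908 of 23172 genes. The median of the 85 genes moved from 4.64 to 8.58 TPM in the second transcript table and to 14.9 TPM when TPM was rescaled to a fixed sum over nuclear coding genes, which raises every level. In the same order, the medians moved to 6.96 and 11.9 TPM in complex I, 19.2 and 43.8 in complex II, 7.41 and 14.3 in complex III and 9.14 and 9.85 in complex IV, and to 37.6 in ATP synthase after rescaling. Leaving out a replicate kept each median within 1 SD, and the shift of each library kept its sign under DESeq2 size factors, no filter, all genes as reference and TPM. With TPM the shift moved from -0.07 to -0.23 in replicate 1 and from -0.25 to -0.08 in replicate 3. Genes near or below the floor changed side. In the second transcript table the log2 level over 1 TPM became 0.053 for Ndufa8, 0.66 for Atp5g1, 0.57 for Cox4i2, 2.64 for Cox7a1, 0.60 for Ndufa1, 0.74 for Ppargc1a and 0.92 for Ckm. After rescaling it became 0.96 for Ndufa8, 1.09 for Atp5g1, 0.39 for Cox6a2 and 0.31 for Ndufa1. Leaving out a replicate gave -0.7743 to 0.0015 for Atp5g1 (above 0 without replicate 1), -0.3528 to 0.3444 for Ndufa4 and -0.08 to 0.3566 for Ndufb3 (both below 0 without replicate 2), -1.5304 to 0.6196 for Ndufa1 (above 0 without replicate 2) and -0.0826 to 0.1725 for Ndufc1 (below 0 without replicate 3). The cause of the changes in the second table was not tested. No paired analysis was possible because there is 1 group. Depth limits the low genes: 18 of 85 have fewer than 30 counts.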
